A study of Mus musculus with 18 samples.

Results

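The metallothionein and zinc transporter set, 6 genes of zinc and manganese handling, was followed through all 18 liver libraries of the series: the metallothioneins Mt1 and Mt2, the zinc sensor Mtf1, the exporters Slc30a1 and Slc30a10, and the importer Slc39a14. They were taken by symbol, and all 6 were found in both deposited count tables, which hold 38924 genes (males) and 23337 genes (females). The set was chosen by symbol with measured differences between LDP and control mice already known; which of them guided the choice is not stated, so values in all 3 LDP comparisons are given as a description and support nothing. Libraries came from 6 groups of 3 mice, all killed at 8 weeks of age on the diet D12451, with 45% of its energy from fat. C57BL6J mice of both sexes received low-dose penicillin (LDP) starting at birth, or no antibiotic as controls, and were weaned at 4 weeks and moved to the high-fat diet at 6 weeks. In the transfer experiment, germ-free Swiss Webster females were given control microbiota or LDP microbiota at 3 weeks and no antibiotic themselves. The labels name no cage, litter or microbiota donor, and p-values therefore measure only the spread between these mice.

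Metallothioneins are small, cysteine-rich proteins of the cytosol that bind zinc and copper, and the liver is a main site of their induction. When free zinc rises, the transcription factor MTF1 binds short metal response elements in the promoters of Mt1, Mt2 and Slc30a1. Glucocorticoids and interleukin 6 also induce metallothioneins, and interleukin 6 induces the importer SLC39A14 (ZIP14), which carries zinc, manganese and iron that is not bound to transferrin. SLC30A1 (ZnT1) exports zinc through the plasma membrane, whereas SLC30A10, in spite of its family name, is known chiefly as a manganese exporter.

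Mt2 (chromosome 8, 94172664 to 94173568, GRCm38) and Mt1 (94179082 to 94180327) lie on the same strand with 0 annotated genes between them. Slc30a1 (191906767 to 191913247) and Slc30a10 (185454848 to 185468762) are both on chromosome 1, Mtf1 is on chromosome 4 (124802104 to 124849800), and Slc39a14 is on chromosome 14 (70303469 to 70351425). Because strandedness is not stated, reads of Mt2, Slc30a1 and Slc30a10 cannot be told apart from those of the genes annotated opposite them (Gm45774, 1700034H15Rik and Gm2061), nor those of Mtf1 from 1110065P20Rik. The rRNA gene n-R5s192 overlaps Mtf1 on the same strand, so strand would not separate their reads. Mt1 and Mt2 transcripts share no exact run longer than 20 bases, and 0 of their 50-base stretches occur in a transcript of another gene.

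The promoters below are shown because Mt1, Mt2 and Slc30a10 are the genes that separate the mice in what follows. Each was searched on both strands for the 7-base core of the metal response element, TGCACNC or TGCGCNC, which stands in capitals; overlapping matches count as 1 place. Sequences are RefSeq promoter windows on GRCm38.p6, from 250 bases before to 50 bases after the annotated start, 5′ to 3′ on the gene's strand, and 5 of the 6 genes matched an entry. For Mt2 and Slc30a10 the 250 bases before the start are given (chr8:94172368-94172617 and chr1:185454598-185454847, both on the plus strand). For Mt1 and Slc30a1, also on the plus strand, excerpts of 30 bases around cores are given (chr8:94179055-94179084, chr8:94179089-94179118 and chr1:191906727-191906756). The second Mt1 excerpt, with 2 cores, lies downstream of the annotated start, and counts of places depend on which start is annotated. The other Slc30a1 place, downstream of the start at chr1:191906800-191906829, is not shown. Nor is 1 Mt2 place downstream of the start, at chr8:94172611-94172640.
Mt2 upstream: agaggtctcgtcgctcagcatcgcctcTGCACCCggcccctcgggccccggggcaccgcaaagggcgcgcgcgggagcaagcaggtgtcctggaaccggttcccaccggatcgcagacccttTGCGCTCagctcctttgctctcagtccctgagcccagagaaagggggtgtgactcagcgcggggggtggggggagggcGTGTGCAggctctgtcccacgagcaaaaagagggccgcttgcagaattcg
Slc30a10 upstream: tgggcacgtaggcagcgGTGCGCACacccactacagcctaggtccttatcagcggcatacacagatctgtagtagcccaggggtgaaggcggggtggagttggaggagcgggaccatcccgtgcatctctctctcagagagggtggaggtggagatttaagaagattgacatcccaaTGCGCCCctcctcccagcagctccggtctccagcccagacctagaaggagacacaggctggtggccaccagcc
Mt1 first excerpt: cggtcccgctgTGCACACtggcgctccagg
Mt1 second excerpt: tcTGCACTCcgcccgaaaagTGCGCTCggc
Slc30a1 excerpt: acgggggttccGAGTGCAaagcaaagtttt
Within the whole windows the core stood at 4 places for Mt2, 3 for Mt1, 2 for Slc30a1 and 2 for Slc30a10, and at 0 for Mtf1. Of all 32851 windows, 25.7% held it at least once, 6.14% at 2 or more places, 1.31% at 3 or more and 0.295% at 4 or more. A match to these letters describes the sequence and does not show that a factor binds there.

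The libraries held 70336366 to 74418889 counts in males and 17937005 to 28646168 in females, and each table was scaled on its own, so levels are never compared between sexes. Values are CPM, counts divided by the library size after scaling by TMM (trimmed mean of M values). Log2 changes are from edgeR's quasi-likelihood fit, with an approximate SE. All 8 hepatocyte markers, including albumin, were counted in every group, at 91416 to 114883 CPM in sum in males and 130106 to 196805 in females. In bulk liver, fewer cells of a type and less RNA per cell cannot be told apart.

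Per base of transcript, Mt1 stood highest of the set in males, and the place of Mt2 differed between the groups. In control males Mt1 stood at 82.3 ± 24.0 CPM per kilobase (SD, n = 3), Slc39a14 at 39.01 ± 6.46, Mt2 at 35.0 ± 13.3, Slc30a1 at 7.90 ± 0.125, Slc30a10 at 4.59 ± 0.674 and Mtf1 at 2.29 ± 0.172. Neighbours in this order did not overlap between mice, apart from Slc39a14 and Mt2. In LDP males Mt2 came second, at 106 ± 52.7 CPM per kilobase, and its lowest mouse (74.9) lay above the highest value of Slc39a14 (46.6). The other 2 metallothionein genes, Mt3 and Mt4, had 0 counts in every library except 1 count of Mt3 in LDP female 52; a count of 0 allows up to 0.0427 CPM in the shallowest male library and 0.167 CPM in the shallowest female one, for counting error only.

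Transcripts of both storage proteins had higher counts in each LDP male than in any control male, but neither gene passed the test over all genes (adjusted p = 0.920 for each by edgeR). Mt1 stood at 55.3, 30.1 and 47.9 CPM in control males 5, 6 and 7 and at 148, 77.6 and 78.1 CPM in LDP males 8, 10 and 11. Every LDP male was above every control, and LDP male 8 was the highest of all. The log2 change was 1.19 (SE 0.366), a 2.27-fold difference. Mt2 stood at 26.8, 12.01 and 19.6 CPM in the same controls and at 92.7, 42.3 and 41.6 CPM in the LDP males. The groups again did not overlap, with the same mouse highest, control male 6 lowest, and a log2 change of 1.60 (SE 0.475), or 3.03-fold. Without LDP male 8 the log2 changes were 0.81 for Mt1 and 1.11 for Mt2.

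**Figure D1:**
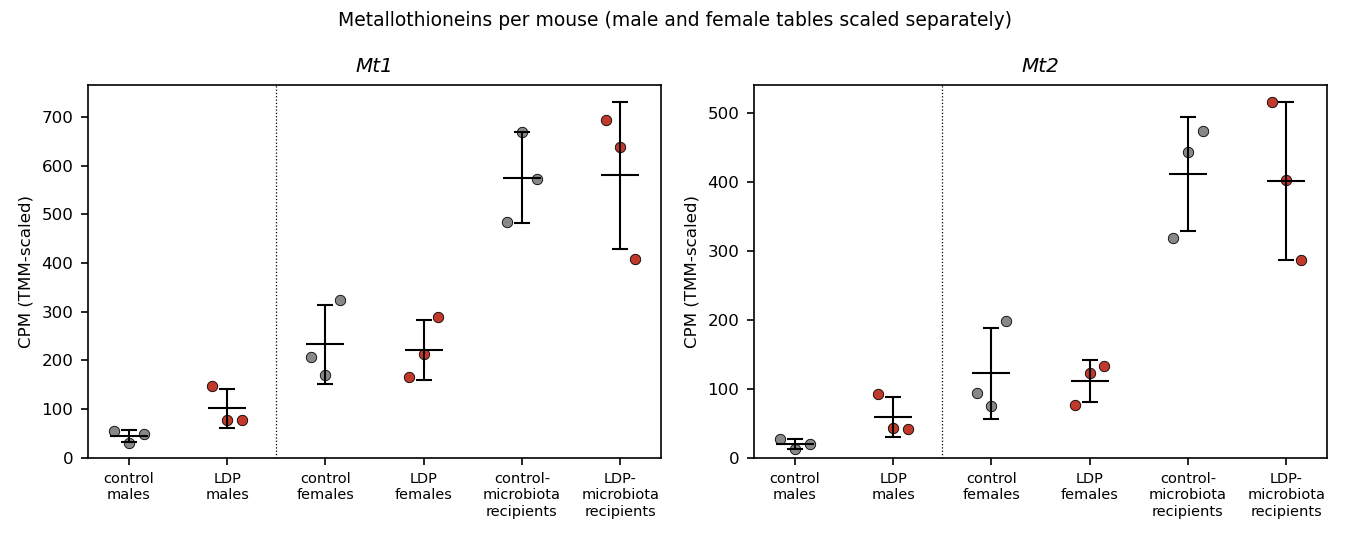
CPM of Mt1 (left) and Mt2 (right) in each mouse, 1 point per mouse, with mean and SD bars over 3 mice; grey marks controls and control-microbiota recipients, red the LDP groups, and the dotted line divides the male from the female table, across which levels are not comparable. In males the LDP points, at 77.6 to 148 CPM of Mt1, lie above the controls, and in females both recipient groups lie above both C57BL6J groups.

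In LDP females and in LDP-microbiota recipients the metallothioneins overlapped with their controls. In control females 29, 30 and 32 Mt1 stood at 206, 169 and 325 CPM, and in LDP females 39, 52 and 54 at 166, 212 and 288 CPM. The log2 change was -0.07 (SE 0.282), and the groups overlapped, with control female 32 highest and LDP female 39 lowest. Without control female 32 it was 0.25 for Mt1 and 0.39 for Mt2. Mt2 ranged from 74.9 to 198 CPM in control females and from 75.9 to 133 CPM in LDP females (log2 change -0.14, SE 0.409). Among recipients, Mt1 stood at 484, 670 and 573 CPM in control-microbiota recipients 1, 3 and 7 and at 695, 638 and 409 CPM in LDP-microbiota recipients 2, 5 and 8. The means were 576 ± 93.1 and 580 ± 152 CPM (log2 change 0.00192, SE 0.211). For Mt2 they were 412 ± 82.7 and 401 ± 115 CPM (log2 change -0.05, SE 0.232). Whether the male difference is larger than the female or recipient one was not tested, since all 3 were known when the genes were chosen.

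The sensor Mtf1 was nearly level throughout. Its means were 20.4 ± 1.53 CPM in control males and 19.9 ± 1.01 in LDP males, and its group means in females ran from 17.0 ± 1.64 CPM in LDP females to 19.2 ± 2.09 CPM in control-microbiota recipients. Groups overlapped in each LDP comparison, with log2 changes of -0.04 (SE 0.0787) in males, -0.11 (SE 0.111) in females and -0.01 (SE 0.125) in recipients.

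The zinc exporter Slc30a1 differed little. In control males 5, 6 and 7 it stood at 40.8, 41.4 and 42.1 CPM and in LDP males 8, 10 and 11 at 47.6, 43.1 and 46.2 CPM. The groups did not overlap, although the log2 change was only 0.14 (SE 0.0638), or 1.10-fold. Among females Slc30a1 stood at 41.6 to 51.7 CPM in controls and at 35.8 to 62.9 CPM in the LDP group, with LDP female 39 lowest and LDP female 54 highest (log2 change 0.13, SE 0.195). Recipients stood at 43.9 to 53.6 CPM with control microbiota and at 41.6 to 48.6 CPM with LDP microbiota (log2 change -0.15, SE 0.124).

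The manganese exporter Slc30a10 varied inside each LDP group. Its highest mouse stood at 1.71 times the lowest in LDP males, 2.08 times in LDP females and 1.81 times in LDP-microbiota recipients. LDP males 8 and 10 stood at 16.6 and 16.3 CPM, below the control males (30.9, 26.2 and 23.1 CPM in males 5, 6 and 7). LDP male 11, at 27.9 CPM, lay inside the control range, so the groups overlapped (log2 change -0.40, SE 0.240). Without LDP male 11 the log2 change was -0.70. In females the means were 17.1 ± 2.29 CPM in controls and 20.1 ± 6.90 CPM in the LDP group, where LDP female 39 was lowest at 12.5 CPM and LDP female 54 highest at 25.9 CPM (log2 change 0.24, SE 0.254). Recipients stood at 34.6, 29.97 and 33.8 CPM with control microbiota (1, 3 and 7) and at 53.4, 38.3 and 29.4 CPM with LDP microbiota (2, 5 and 8), with a log2 change of 0.29 (SE 0.202) and overlap.

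The importer Slc39a14 overlapped between LDP and control groups in each comparison. Control males stood at 333 to 457 CPM and LDP males at 363 to 492 CPM (log2 change 0.03, SE 0.149). Control females stood at 308 ± 8.57 CPM and LDP females at 324 ± 17.9 CPM, and the 2 recipient groups at 365 ± 33.5 and 366 ± 32.2 CPM. The log2 changes were 0.08 (SE 0.106) in females and -0.01 (SE 0.127) in recipients.

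**Figure D2:**
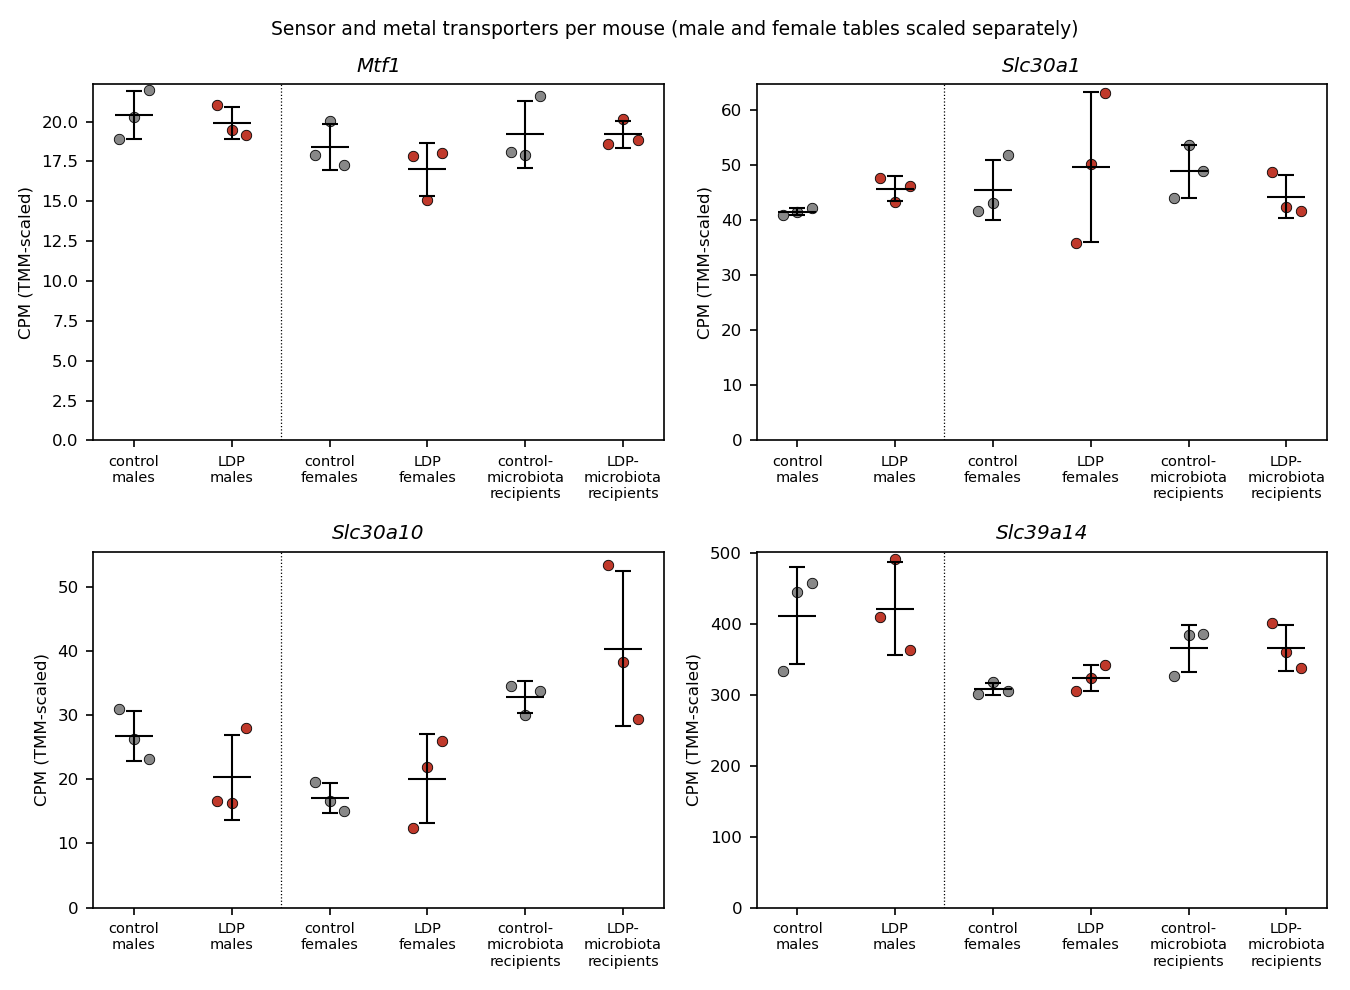
CPM of Mtf1, Slc30a1, Slc30a10 and Slc39a14 in each mouse, drawn as for the metallothioneins, with mean and SD bars over 3 mice. The 2 low LDP males of Slc30a10, at 16.6 and 16.3 CPM, stand apart from LDP male 11 at 27.9 CPM, and Slc30a10 is higher in recipients than in C57BL6J females.

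Against all genes, these counts read as follows. In males 3 of the 6 genes (Mt1, Mt2 and Slc30a1) were higher without overlap, and 0 were lower, against 5.69% and 4.85% of the 15438 genes tested (10.5% in either direction). In females 0 members were free of overlap, against 4.7% of genes higher and 4.44% lower (9.15% in either direction), and in recipients 0, against 6.74% and 5.05% (11.8%). Nothing is read from these counts, because the comparisons were known at the choice. None of the 6 passed an adjusted p of 0.05 by edgeR in males (0.00648% of all genes passed), in females (0%) or in recipients (0.00782%). DESeq2 called 0 of them in each as well. At an unadjusted p under 0.05 there were 2 members in males, Mt1 and Mt2, and 0 in females and in recipients, against 5.23%, 4.51% and 5.11% of all genes.

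A further contrast set the 6 recipients against the 6 C57BL6J females of the same table, averaging over LDP and control. The rule for the genes does not name it, and it was tested on the assumption that it did not guide their choice, although earlier results of these data were known. Strain, colonisation of germ-free mice at 3 weeks and the experiment itself are one split here and cannot be told apart. In recipients 3 of the 6 genes were higher by edgeR's quasi-likelihood test, adjusted over 13295 genes, where 12.6% of all genes were higher and 14.2% lower. Mt2 rose from a mean of 117 CPM in C57BL6J females to 407 CPM in recipients, a log2 change of 1.80 (SE 0.264, adjusted p = 6.4e-04 by edgeR). Its lowest recipient, at 286 CPM, lay above its highest C57BL6J female, at 198 CPM. Mt1 rose from 228 to 578 CPM, by 1.34 (SE 0.198, adjusted p = 4.6e-04 by edgeR), and the 409 CPM of the lowest recipient exceeded the 325 CPM of control female 32.

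Slc30a10 also rose, from 18.6 to 36.6 CPM, a log2 change of 0.97 (SE 0.181, adjusted p = 0.0022 by edgeR). All 6 recipients, at 29.4 to 53.4 CPM, were above all 6 C57BL6J females, at 12.5 to 25.9 CPM. These 3 members were higher without overlap and 0 were lower, where 6.34% of all tested genes were higher and 6.63% lower without overlap (13% in either direction). The log2 change of Slc30a10 was 0.94 among control mice only and 0.99 among LDP mice only, where its adjusted p by edgeR was 0.081.

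The other 3 members did not pass. Slc39a14 stood at 327 to 401 CPM in recipients and 302 to 341 CPM in C57BL6J females, a log2 change of 0.21 (SE 0.0769) with an adjusted p = 0.0574 by edgeR and 0.0165 by DESeq2. Mtf1 had a log2 change of 0.12 (SE 0.0801, adjusted p = 0.298 by edgeR) and Slc30a1 one of -0.03 (SE 0.120, adjusted p = 0.866 by edgeR). The median log2 change of the 6 genes was 0.59, beside 0.00403 over all genes tested.

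**Figure D3:**
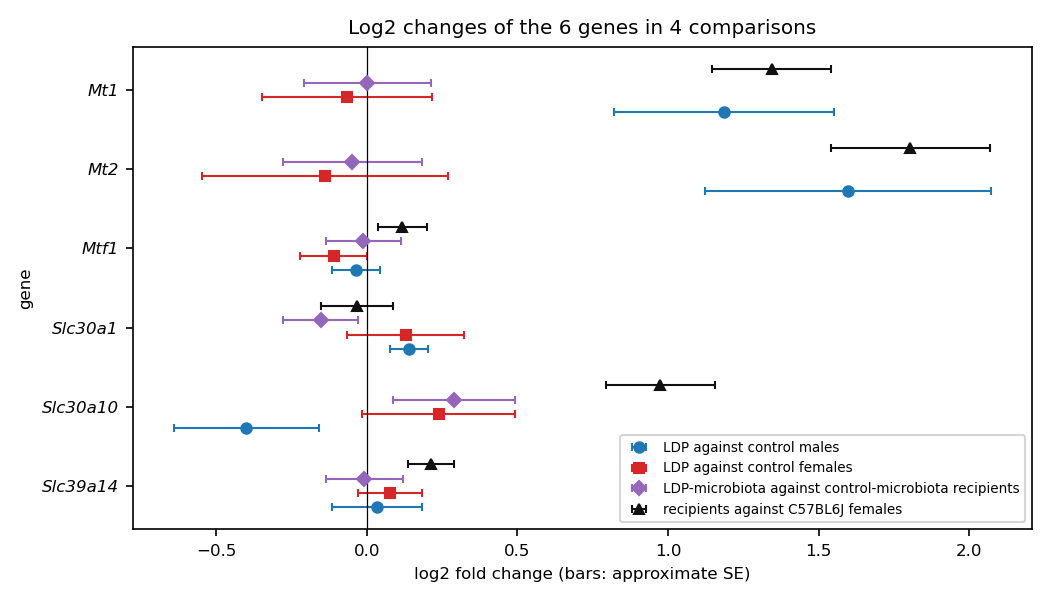
Log2 change of each of the 6 genes (rows) in the 4 comparisons (symbols), with bars of 1 approximate SE. Mt1 and Mt2 lie far to the right in LDP males (1.19 and 1.60) and in recipients against C57BL6J females (1.34 and 1.80), and near 0 in LDP females and LDP-microbiota recipients.

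The log2 change of Mt2 exceeded that of Mt1 both in LDP males and in recipients against C57BL6J females, and the ratio of Mt1 to Mt2 counts was lower in the LDP males and in the recipients. In control males 5, 6 and 7 the ratio was 2.07, 2.51 and 2.45, and in LDP males 8, 10 and 11 it was 1.59, 1.84 and 1.88. The 6 C57BL6J females had ratios of 1.64 to 2.26, and control female 32, the highest of them in both genes, had the lowest ratio. Within groups the ratio did not always go down with the level: LDP female 54, the highest of its group in both genes, had 2.16 and LDP female 52 had 1.73, and LDP-microbiota recipient 8, the lowest of its group in both, had 1.43 and recipient 5 had 1.58. The 6 recipients had ratios of 1.21 to 1.58, all below the C57BL6J females. Their means were 1.43 ± 0.138 and 2.03 ± 0.269 (exact two-sided permutation p = 0.0022, the smallest that 6 against 6 mice allow). The ratio was chosen after the counts were seen. Within control mice and within LDP mice the differences were -0.61 and -0.57 (exact permutation p = 0.1 each, the smallest that 3 against 3 allow). Because all recipients lay below all C57BL6J females, these smaller sets had to separate as well, and they add no support.

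**Figure D4:**
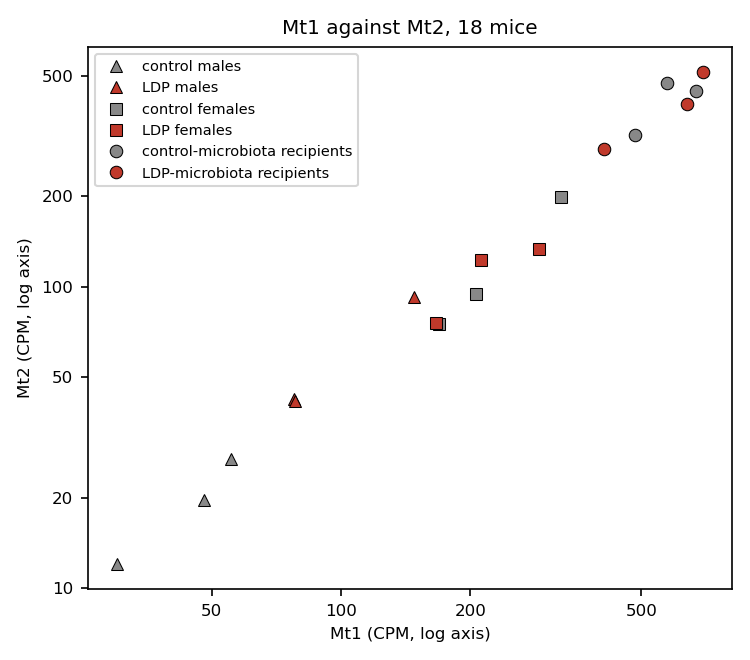
Mt1 against Mt2 in CPM, both axes logarithmic, 1 point per mouse; triangles are males, squares C57BL6J females and circles recipients, with LDP groups in red. Positions are comparable only among males or among females: LDP males lie above control males, and recipients, with ratios of Mt1 to Mt2 counts between 1.21 and 1.58, lie above C57BL6J females.

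Mouse to mouse, Mt1, Mt2 and Slc30a1 were correlated with each other inside the female groups. How many pairs of other genes reach such r values was not counted. After subtracting each group's mean from log2 CPM, Mt1 and Mt2 had a Pearson r of 0.934 and a Spearman rho of 0.916 over 12 females (exact permutation p within groups of 0.00154 and 0.00231, adjusted p over 15 pairs of members 0.0231 for r). Mt1 and Slc30a1 had an r of 0.803 and a rho of 0.860 (exact permutation p of 0.00309 and 0.00386, adjusted 0.0231). Mt2 and Slc30a1 had an r of 0.764 and a rho of 0.860 (exact permutation p of 0.00463 and 0.00694, adjusted 0.0231). Within the 6 C57BL6J females alone these r values were 0.954, 0.844 and 0.760, and within the 6 recipients 0.905, 0.777 and 0.818. Without the 2 mice farthest from the median they were 0.909, 0.842 and 0.829. These sets are parts of the same 12 mice and add no separate support. LDP female 39 and LDP-microbiota recipient 8 were the lowest of their groups in Mt1, Mt2, Slc30a1, Slc30a10 and Slc39a14 alike. LDP female 54 and LDP-microbiota recipient 2 were the highest of their groups in the same genes.

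The other 12 pairs did not pass the adjusted threshold in females. Closest was Slc30a1 with Slc39a14 (r = 0.640, rho = 0.755, exact permutation p of 0.0170 and 0.0116, adjusted 0.0637, r of 0.636 without the 2 farthest mice). Mtf1 had r values of -0.258 to 0.244 with the other members, among them -0.188 with Mt1 (rho -0.259, exact permutation p of 0.591 and 0.451, adjusted 0.682). In the 6 males Mt1 and Mt2 had an r of 0.993 (rho 0.943, exact permutation p of 0.0556 and 0.0833, adjusted 0.833), where 36 arrangements limit what can be reached, and Mt1 and Slc30a1 an r of 0.505 (rho 0.543, exact permutation p of 0.528 and 0.361, adjusted 0.833).

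Among 10993 named genes of at least 1 CPM in females, the one most like Mt1 on this measure was Mt2. It was followed by Zfp867 (r = 0.923), Cd2ap (0.920), Cyp2a4 (0.911), Wdr59 (0.907), Prkcd (0.906), Arv1 (0.889) and Clec1a (0.887), as a description over 12 mice of 1 table. Each of these had a higher r with Mt1 than Slc30a1 had (0.803). In the 6 males these 7 genes had r values of -0.782 to 0.538 with Mt1, while Mt2 had 0.993. The 5 genes most like Mt1 in males were Ift46, Znhit3, Mt2, Clcn6 and Ktn1, of which Mt2 alone was also among the 8 in females. Most like Slc39a14 in females were Zscan29, Myo1e, Kif11, Slc26a11 and Zfp655 (r of 0.922 to 0.935), of which Zfp655 had an r of 0.884 in males. Most like Slc30a10 were Lmln, Sprn, Gtf2ird1, Cd274 and Ogfod1 (0.903 to 0.940 in females, -0.887 to 0.416 in males).

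The rest of the 2 transporter families differed between recipients and C57BL6J females in both directions. Of 12 tested SLC39 importers outside the set, 4 were higher and 2 lower (edgeR adjusted p under 0.05), and of 6 tested SLC30 genes 3 were higher and 0 lower, where 26.7% of all genes passed in either direction. Slc39a4, a zinc importer best known from the intestine, fell by 0.81 (SE 0.0914, adjusted p = 3.6e-05 by edgeR). It stood at 73.6 ± 5.56 CPM in control females and 60.6 ± 9.16 in LDP females, and at 39.7 ± 3.81 and 36.5 ± 4.19 CPM in control-microbiota and LDP-microbiota recipients, with no overlap. Slc39a2 rose from 1.63 to 5.11 CPM, by 1.64 (SE 0.280), without overlap. Slc39a8, which like Slc39a14 carries zinc and manganese, rose from 33.7 to 42.4 CPM without overlap, and Slc39a11 from 17.2 to 21.2 CPM. Of the SLC30 genes, Slc30a9 rose from 58.3 to 67.9 CPM, Slc30a6 from 10.98 to 13.2 CPM and the low Slc30a3 from 1.26 to 2.98 CPM. In the 3 LDP comparisons 0 of the 18 passed by edgeR or DESeq2, and at an unadjusted p under 0.05 there was 1, Slc39a5 in females (2.44 CPM in LDP, 5.17 in controls).

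**Figure D5:**
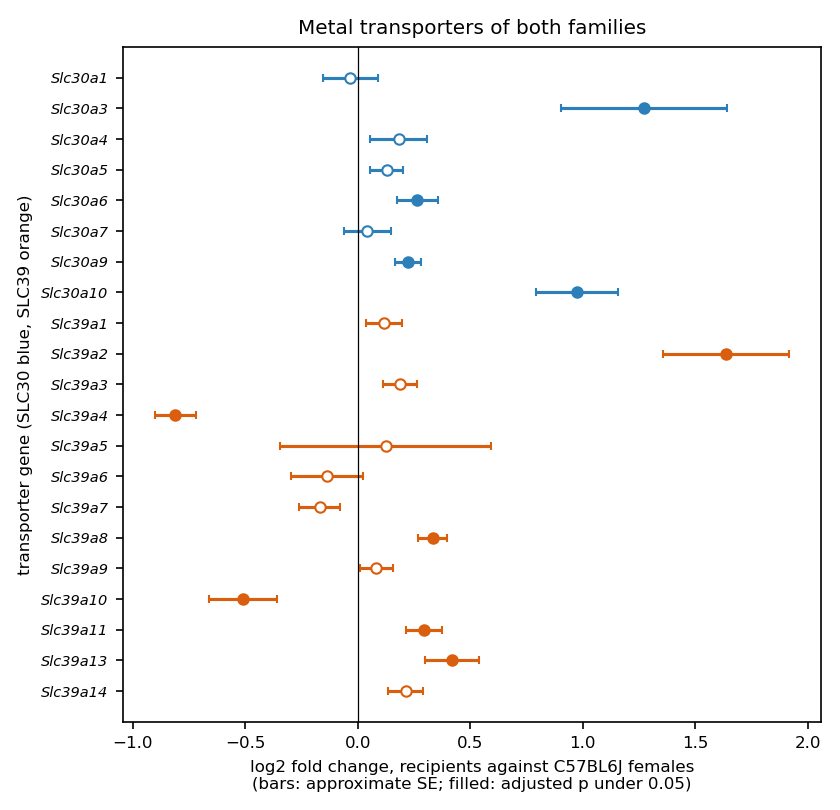
Log2 change between recipients and C57BL6J females of each tested SLC30 (blue) and SLC39 (orange) transporter gene, members included, with bars of 1 approximate SE; filled points passed an edgeR adjusted p of 0.05. Slc39a2, Slc30a3 and Slc30a10 lie farthest to the higher side and Slc39a4, at -0.81, to the lower side.

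Other genes that studies have tied to MTF1 went in both directions between recipients and C57BL6J females, where edgeR called 26.7% of all tested genes. Gclc, of glutathione synthesis, rose from 230 to 325 CPM in recipients, while the LIM-domain gene Csrp1 fell by 0.51 and Slc39a10, which MTF1 is known to repress, also fell by 0.51 (3.44 CPM in recipients, 4.84 in C57BL6J females). By group, mean Slc39a10 was 4.42 CPM in control females and 5.25 in LDP females. It was 3.99 CPM in control-microbiota recipients and 2.88 in LDP-microbiota recipients. Selenow and Ndrg1 completed this list of 5 and did not pass. Of the 5 genes 0 were free of overlap between recipients and C57BL6J females, where 13% of all tested genes were. Of 9 copper handling genes 1 was higher and 2 were lower, which is not far from that share, and nothing about copper handling is read from it. The copper chaperone Atox1 fell by 0.63 (39.2 CPM in recipients, 60.4 in C57BL6J females, no overlap). The copper importer Slc31a1 fell by 0.24, and Commd1 rose by 0.24. Mean Commd1 was near level in control females (29.1 CPM), LDP females (29.6) and control-microbiota recipients (30.1). Only LDP-microbiota recipients stood higher, at 39.9 CPM. In the 3 LDP comparisons edgeR called 0 genes of both lists. DESeq2 called 1, Sod1 in recipients (659 CPM with LDP microbiota, 481 with control microbiota). At an unadjusted p under 0.05 edgeR had 1 in males, Ccs, 0 in females, and 3 in recipients, Selenow, Commd1 and Sod1.

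Known inducers of metallothioneins were read through their target lists. Of 10 glucocorticoid-induced liver genes 0 passed between recipients and C57BL6J females by edgeR or by DESeq2, 1 (Per1) had an unadjusted p under 0.05, and their median log2 change was 0.02. Of 16 interleukin 6 and acute phase genes 4 passed as higher and 0 as lower by edgeR, with a median of 0.24. For all genes it was 12.6% higher, 14.2% lower and a median of 0.00403. By sign alone 11 of the 16 had a log2 change above 0 and 5 below. Lcn2, an iron-siderophore binding protein, rose from 9.61 to 37.9 CPM, by 1.79 (SE 0.253), the serum amyloid P gene Apcs from 134 to 280.4 CPM, Lbp from 175 to 263 CPM and haptoglobin (Hp) from 2282 to 2912 CPM. Among recipients Lcn2 stood at 56.6 ± 15.1 CPM with control microbiota and 19.1 ± 6.30 CPM with LDP microbiota. In males 12 of the 16 genes had a log2 change below 0, with a median of -0.13, and 0 passed by edgeR or DESeq2 (3 at an unadjusted p under 0.05: Orm2 and Saa3 lower, Apcs higher). Of the glucocorticoid list 0 of 10 passed in males by either tool, with 0 at an unadjusted p under 0.05. In LDP females and LDP-microbiota recipients 0 genes of both lists passed by either tool; at an unadjusted p under 0.05 there were Sgk1 in females and Lcn2, Il1r1 and Apcs in recipients, all 4 with lower means in the LDP group. The part of glucocorticoids or interleukin 6 in the metallothionein values was not tested.

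Marker lists were also read between recipients and C57BL6J females, where edgeR called 12.6% of all tested genes higher and 14.2% lower. Monocyte and recruited macrophage markers summed to 65.2 to 84.8 CPM in recipients and 91.5 to 141 in C57BL6J females, with 3 of 7 lower by edgeR. Kupffer cell markers summed to 437 to 635 and 515 to 741 CPM, again with 3 of 7 lower, and mesothelium markers to 0.944 to 7.25 and 5.20 to 21.7 CPM, with 2 of 5 lower. B and plasma cell markers summed to 1.82 to 4.98 and 2.98 to 7.32 CPM, with 3 of 4 tested lower and a median log2 change of -1.07. Sinusoidal endothelium markers summed to 375 to 497 and 415 to 479 CPM, with 1 of 6 higher and 2 lower. Stellate cell markers summed to 181 to 233 and 177 to 281 CPM, with 1 of 7 lower, near the share of all genes. The red blood cell list summed to 105 to 455 CPM in recipients and 40.5 to 93.4 CPM in C57BL6J females, with Hba-a1 at 0 throughout. Hbb-bs made up most of that sum, at 96.3 to 426 CPM in control-microbiota recipients and 95.4 to 161 in LDP-microbiota recipients. In control females Hbb-bs stood at 32.8 to 72.9 CPM and in LDP females at 29.1 to 58.0 CPM. Of 2 tested genes Hbb-bs passed as higher by edgeR, and Alas2 had a log2 change below 0 and did not pass. The pancreas list summed to 19.7 to 56.3 and 10.5 to 19.2 CPM, nearly all of it Cela1, with Ins2 at 0 in every female. Of its 2 tested genes 1 was higher and 1 lower by edgeR. Cela2a went the other way from the sum, at 0 CPM in both recipient groups. It stood at 0.783 to 1.23 CPM in control females and 0.785 to 1.16 CPM in LDP females. The part of these markers in the metallothionein and Slc30a10 differences was not tested; 0 of 8 hepatocyte markers passed, with a median log2 change of 0.00176. In males the hepatocyte list summed to 91416 to 102171 CPM in controls and 106167 to 114883 in LDP males. Albumin (Alb) made up most of that sum, at 57430 to 67675 and 71542 to 82310 CPM. By gene, 4 hepatocyte markers were higher and 4 lower, with a median log2 change of -0.01, and 0 passed by edgeR. The Kupffer cell list summed to 367 to 451 CPM in controls and 314 to 343 CPM in LDP males, with 7 of 7 genes lower and 0 passing. The part of both lists in the male Mt1 and Mt2 values was not tested.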

How the data were processed

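Liver RNA was sequenced as 1 library per mouse from TruSeq v2 preparations, per the labels' protocols. The authors deposited 2 tables of unnormalized read counts, 1 row per gene. The submitters' processing notes list HTSeq 0.5.3p9, DESeq, mm10, featureCounts 1.4.3-p1 and STAR 2.3.0e, with no roles stated. Strandedness, read length and annotation are not given in the sources used here. The male table also gives a gene length in bases, used for values per kilobase. Male Ensembl IDs were matched to symbols (37607 of 38924), and 5 list genes of the female table through RefSeq synonyms. All sample columns were matched by name to the labels, and 0 were left over.

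Genes kept by filterByExpr (minimum count 10, total 15) received TMM factors. Tests were edgeR's quasi-likelihood ones with robust fitting (version 4.0.16, under R 4.3.3), and p-values were adjusted by Benjamini-Hochberg over every gene tested, at a threshold of 0.05. Each LDP comparison used its own 6 libraries, and recipients against C57BL6J females all 12. CPM per mouse used 1 TMM scaling per table. The fit was tested on simulated data. Correlations used log2 CPM with a prior count of 2. Alternatives were DESeq2 1.42.0, other factors and filters, a fit that is not robust, and leaving out each mouse.

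The members, lists and tests were chosen with earlier results of these data known. All 6 members are named in every comparison, up to 4 passing genes of each list by smallest p, and the genes of highest r with Mt1 (8 in females, 5 in males), Slc39a14 (5) and Slc30a10 (5). Genes named for an unadjusted p alone, and Sod1, Selenow and Ndrg1, were named after their values were seen.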

Additional observations from a re-analysis of the deposited data

How the results depend on the processing

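In the 3 LDP comparisons 0 members passed under any alternative run. The number of all genes that passed was less stable. By DESeq2 it was 42 in males, 15 in females and 28 in recipients, and without a filter on low counts 2, 1 and 2, beside 1, 0 and 1 in the edgeR fits reported. With all 12 female libraries sharing the spread it was 3 in recipients. Leaving out 1 mouse gave 0 to 66 in males (66 when LDP male 11 was dropped, 2 for LDP male 10, and 0 for control male 6, control male 7 or LDP male 8), 0 to 1 in females (1 without LDP female 39) and 0 to 4 in recipients (4 without LDP-microbiota recipient 8, and 0 without control-microbiota recipient 1 or LDP-microbiota recipient 5). The cause was not tested. Without any 1 mouse the log2 change in males was 0.81 to 1.37 for Mt1 and 1.11 to 1.90 for Mt2, and in females it was -0.30 to 0.25 and -0.40 to 0.39, the highest without control female 32.

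Between recipients and C57BL6J females Mt1, Mt2 and Slc30a10 passed with DESeq2, with the other factors and filters, without robust fitting and without any 1 mouse, and 3 or 4 members passed in each; the fourth was Slc39a14, by DESeq2, without control-microbiota recipient 1 or without LDP-microbiota recipient 8. Among control mice only and among LDP mice only, alternatives added after seeing the data, 1086 and 1940 of all genes passed instead of 3556, with fewer mice; 3 and 2 members passed, and 5 and 8 list genes instead of 18. Slc30a1 changed sign in this contrast, to 0.0029 without control-microbiota recipient 1, 0.02 without control female 32, 0.0709 without LDP female 54 and 0.10 among control mice only, from -0.03. Without any 1 mouse it was -0.126 to 0.0709, and it passed in none of these. The ratio of Mt1 to Mt2 differed by -0.59 over 12 mice, and by -0.61 and -0.57 within control and within LDP mice, where 3 against 3 cannot pass. Ranked by Spearman's rho, 5 of the 8 genes most like Mt1 in females remained, 1 of 5 in males, 3 of 5 for Slc39a14 and 2 of 5 for Slc30a10. No paired analysis was possible because the groups compared share no mouse numbers. The metallothionein values rest on at least 880 counts a library and on 3 mice a group.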
